A study of Rattus norvegicus with 9 samples.

Results

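Histone deacetylase transcripts were examined in the hippocampus of young adult rats whose dams had received valproic acid (VPA), a drug that inhibits these enzymes. The 10 genes were Hdac1, Hdac2, Hdac3, Hdac4, Hdac5, Hdac6, Hdac7, Hdac8, Hdac9 and Hdac11, taken by symbol from 18183 genes named on arrays of 30429 probe sets. A probe set is the group of array probes that reports 1 transcript, and each of the 10 genes had 1. The annotation of the Hdac9 probe set lists that symbol under 2 gene IDs.

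Each of 9 male Sprague-Dawley rats gave dorsal hippocampus RNA for 1 array at 8 weeks of age, on postnatal day 56. The OXT-treated VPA group (n = 3) came from dams given 600 mg/kg VPA in mid-gestation and received intranasal oxytocin (OXT), 12 μg/kg/d, on postnatal days 21 to 55. The vehicle-treated VPA group (n = 3) had the same prenatal exposure and received intranasal vehicle. The control group (n = 3) had no VPA before birth and also received vehicle, and no group received OXT without VPA. VPA pups came from 3 dams and control pups from 2 dams. The litter of each array is not known here, so the errors and p values below do not account for littermates.

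Histone deacetylases remove acetyl groups from lysines of histones and other proteins, and histone deacetylation is generally tied to a less open chromatin. The class I enzymes are nuclear and act inside corepressor complexes, while the class IIa enzymes carry signals between cytoplasm and nucleus by binding transcription factors of the Mef2 family. In the hippocampus, class I enzymes are known for limiting memory-related transcription in rodents. VPA blocks the activity of these enzymes, chiefly those of class I, and the arrays measured transcripts, not enzyme activity or acetylation.

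The deposited values are log2 expression levels, so a difference of 1 is a doubling. The array medians lay between 5.75 and 5.82, and the lowest correlation between arrays of a group was 0.983 over all probe sets. Levels were compared with limma over all probe sets. A gene was called in a pair of groups at an unadjusted p under 0.05 of the moderated contrast. The study put this threshold on the F over the 3 groups, which is given as well. Each p was also adjusted for all probe sets together (Benjamini-Hochberg). The study further asked for a change of 1.5-fold and a mean log2 level over 6.6 in at least 1 group. All members but Hdac7 were over this level.

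Of the 10 members, 1 was called between vehicle-treated VPA and control rats, a share near that of all probe sets (8.98%). This was Hdac1, 1.32-fold higher in vehicle-treated VPA rats. Between the VPA groups, 1 of 10 was called, against 4.66% of probe sets. This was Hdac7, 1.21-fold higher after OXT. Against control, 0 members were called in OXT-treated VPA rats at an unadjusted p under 0.05 with limma, against 7.38% of probe sets. After adjustment, 0 members passed in any comparison, and Hdac1 was the member with the smallest adjusted p in each comparison with control.

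**Figure D1:**
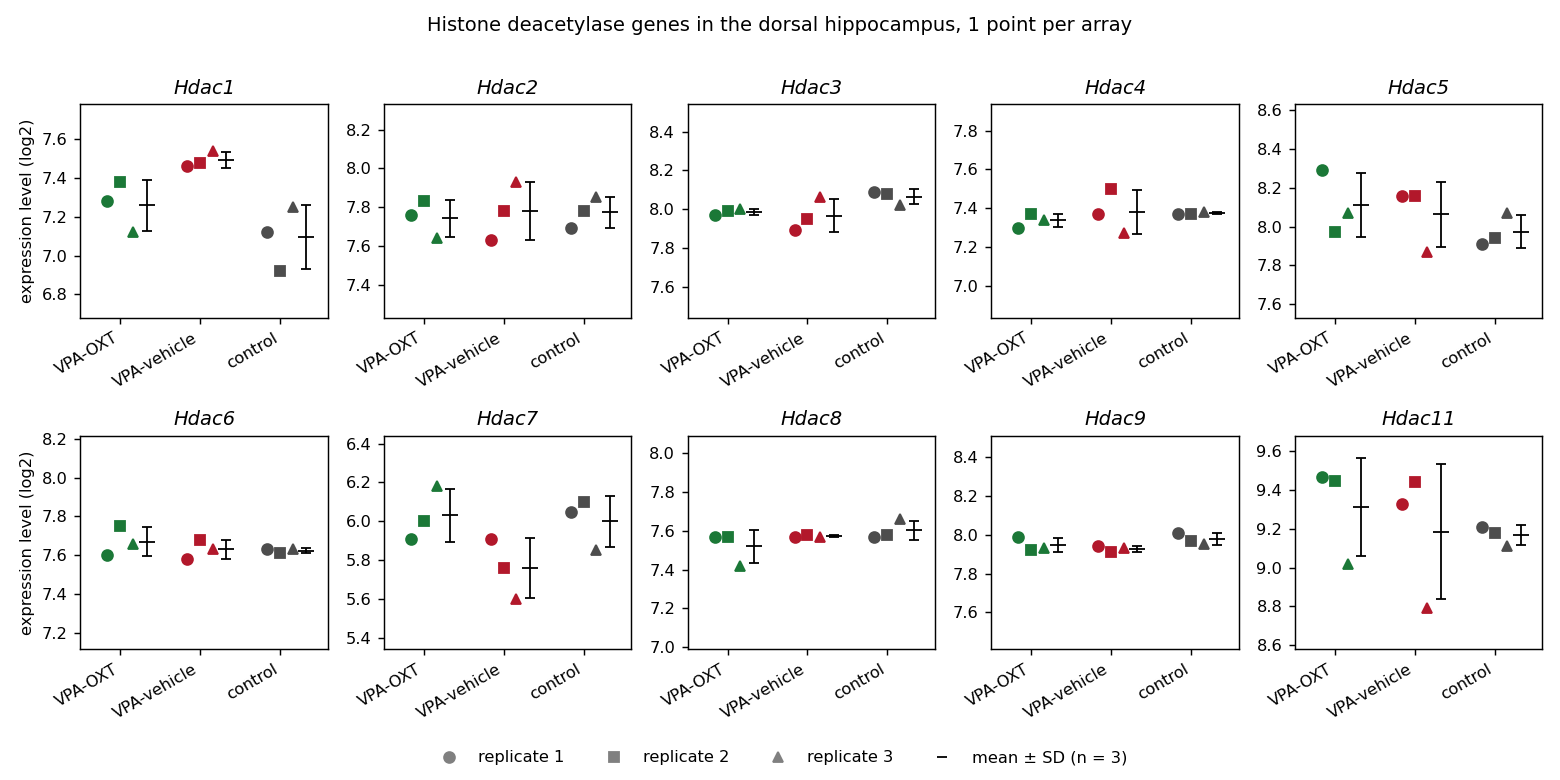
Expression level (log2) of each of the 10 histone deacetylase genes on each of the 9 arrays; points are rats, and the bars are the group mean ± SD (n = 3). Every panel spans the same log2 range, and the 3 vehicle-treated VPA arrays of Hdac1, at 7.46 to 7.54, sit above all other arrays of that gene.

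Hdac1 and Hdac2, the paired catalytic subunits of the Sin3, NuRD and CoREST corepressor complexes, differed in their pattern. To show both close relatives beside Hdac7, the other gene with a call, the 250 bases upstream of each gene's start are given from RefSeq (rat assembly GRCr8), with the GC box (GGGCGG on either strand, the letters bound by Sp family factors) in capitals. They lie at chr5:147165388-147165637 on the minus strand, chr20:42102877-42103126 on the plus strand and chr7:130841018-130841267 on the minus strand.
Hdac1: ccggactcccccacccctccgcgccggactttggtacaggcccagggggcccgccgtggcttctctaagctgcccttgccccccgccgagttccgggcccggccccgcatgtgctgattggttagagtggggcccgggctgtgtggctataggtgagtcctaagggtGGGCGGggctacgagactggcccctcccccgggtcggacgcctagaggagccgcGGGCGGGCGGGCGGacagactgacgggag
Hdac2: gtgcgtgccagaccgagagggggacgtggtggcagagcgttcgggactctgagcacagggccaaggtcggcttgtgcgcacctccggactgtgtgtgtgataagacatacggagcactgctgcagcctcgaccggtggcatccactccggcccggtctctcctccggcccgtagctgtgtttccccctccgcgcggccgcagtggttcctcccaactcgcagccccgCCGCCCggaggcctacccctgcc
Hdac7: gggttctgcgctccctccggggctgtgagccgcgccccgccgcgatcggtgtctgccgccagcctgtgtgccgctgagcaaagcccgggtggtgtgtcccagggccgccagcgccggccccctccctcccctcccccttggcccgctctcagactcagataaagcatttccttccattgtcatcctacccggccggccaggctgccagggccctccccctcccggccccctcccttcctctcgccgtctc
The Hdac1 window holds 4 GC boxes, 3 of which overlap one another, the Hdac2 window holds 1 and the Hdac7 window holds 0. The 3 windows are alike in GC content, at 72.4% for Hdac1, 68.8% for Hdac2 and 72% for Hdac7. Of the 9 members in the promoter table (all but Hdac11), 6 had a GC box (Hdac1 to Hdac6), against 30.5% of 33469 rat promoters of that length. The CCAAT box (letters CCAAT on either strand) was in 5 of 9 members, against 34% of promoters. The TATA box (letters TATAAA on either strand) was in 0 of 9, against 12.9%. The shares are over promoters of any GC content, and none was taken over promoters alike in GC content. The windows without a GC box had 72% (Hdac7), 38.8% (Hdac8) and 34.4% (Hdac9) GC. These matches describe the letters of each window only.

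Hdac1 had levels of 7.28, 7.38 and 7.12 in OXT-treated VPA rats, 7.46, 7.48 and 7.54 in vehicle-treated VPA rats, and 7.12, 6.92 and 7.25 in control rats. The vehicle-treated VPA arrays overlapped with neither other group, while the OXT-treated VPA arrays overlapped with control. Over all probe sets, vehicle-treated VPA arrays did not overlap with control for 13.6% and with OXT-treated VPA for 6.33%. No share was taken for both at once. The mean was 7.49 ± 0.04 in vehicle-treated VPA rats and 7.10 ± 0.17 in control rats (SD, n = 3 each). The difference was 0.40 (SE 0.106, 95% confidence interval 0.16 to 0.64, adjusted p = 0.311), which is larger than the spread within either group. The exact two-sided permutation test gave p = 0.1, the smallest that 3 against 3 arrays allow. Leaving out each array in turn moved the difference between 0.31 and 0.47. Hdac1 stayed called at an unadjusted p under 0.05 in all 19 alternative settings of the fit, but not at the adjusted p or with the 1.5-fold criterion. Of the 19 settings, the lowest probe set of a gene only repeats the main fit, since Hdac1 has 1 probe set. With OXT, Hdac1 averaged 7.26 ± 0.13, and the difference from vehicle was -0.23 (SE 0.106, 95% confidence interval -0.47 to 0.01, adjusted p = 0.9997), which was not called. That difference was called in 8 of 19 alternative settings and ran from -0.29 to -0.16. Its exact permutation p was also 0.1, so this test does not set the 2 differences apart. Against control, the OXT-treated VPA group differed by 0.16 (95% confidence interval -0.08 to 0.40, adjusted p = 0.820, exact permutation p = 0.3), which was not called either. The mean of both VPA groups exceeded control by 0.28 (SE 0.092, 95% confidence interval 0.07 to 0.49, adjusted p = 0.385), and this call was lost without control replicate 2, the array with the lowest Hdac1. The exact permutation p of that comparison was 0.0714, and the smallest that 6 against 3 arrays allow is 0.0238. The 2 VPA groups are compared with the same control arrays, so these differences are not independent.

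Hdac2 had levels of 7.76, 7.83 and 7.64 in OXT-treated VPA rats, 7.63, 7.78 and 7.93 in vehicle-treated VPA rats, and 7.69, 7.78 and 7.85 in control rats. The 3 groups overlapped throughout. The difference between vehicle-treated VPA and control rats was 0.01 (95% confidence interval -0.22 to 0.23, adjusted p = 0.990), and that between OXT and vehicle was -0.04 (95% confidence interval -0.26 to 0.19). Subtracting Hdac2 from Hdac1 on each array gave -0.48, -0.45 and -0.52 in OXT-treated VPA rats, -0.17, -0.30 and -0.39 in vehicle-treated VPA rats, and -0.57, -0.86 and -0.60 in control rats. The 3 groups did not overlap in this within-array difference, which is a description chosen after the levels were seen. The nearest values of OXT-treated VPA and control rats were -0.52 and -0.57. How often other pairs of genes separate the groups in this way was not counted. It says nothing of which transcript was more abundant, since probes of different genes differ in their response.

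Hdac3, the catalytic subunit of the NCoR and SMRT corepressor complex, had levels of 7.97, 7.99 and 8.00 in OXT-treated VPA rats, 7.89, 7.95 and 8.06 in vehicle-treated VPA rats, and 8.09, 8.08 and 8.02 in control rats. The OXT-treated VPA arrays all lay under the control arrays, but by -0.08 on average (95% confidence interval -0.25 to 0.09, adjusted p = 0.898). Vehicle-treated VPA rats differed from control by -0.10 (95% confidence interval -0.27 to 0.07, adjusted p = 0.727). Hdac8, a class I enzyme that acts on the cohesin subunit Smc3, had levels of 7.57, 7.57 and 7.42 with OXT, 7.57, 7.58 and 7.57 with vehicle after VPA, and 7.57, 7.58 and 7.66 in control rats. Most arrays shared nearly the same Hdac8 level, apart from OXT-treated VPA replicate 3 below and control replicate 3 above. Its difference was -0.03 for vehicle-treated VPA against control (95% confidence interval -0.20 to 0.14) and -0.05 for OXT against vehicle (95% confidence interval -0.22 to 0.12).

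The class IIa members Hdac4, Hdac5, Hdac7 and Hdac9 are repressors with little deacetylase activity of their own, which leave the nucleus when calcium-dependent kinases phosphorylate them. Of these 4 genes, 0 were called between vehicle-treated VPA and control rats at an unadjusted p under 0.05, against 8.98% of probe sets. Between the VPA groups 1, Hdac7, was called, against 4.66% of probe sets. Hdac7 is best known from endothelium and developing thymocytes. Its levels were 5.91, 6.0 and 6.18 in OXT-treated VPA rats, 5.91, 5.76 and 5.60 in vehicle-treated VPA rats, and 6.05, 6.10 and 5.85 in control rats. Every array lay under 6.6, and the VPA groups met at 5.91. The mean was 6.03 ± 0.14 with OXT and 5.76 ± 0.16 with vehicle (SD, n = 3 each), a difference of 0.27 (SE 0.116, 95% confidence interval 0.01 to 0.54, adjusted p = 0.9997). Hdac7 was not called by the F over the 3 groups (adjusted p = 0.722). The call between the VPA groups was kept in 8 of 18 alternative settings, 1 of which (the lowest probe set of a gene) repeats the main fit. It was lost with array weights, no moderation, the replicate block or only the 2 groups compared, and without any one of OXT-treated VPA replicates 2 and 3, vehicle-treated VPA replicates 2 and 3 and control replicates 1 and 2, where the difference was 0.195 to 0.29. Against control, Hdac7 differed by -0.24 in vehicle-treated VPA rats (SE 0.116, 95% confidence interval -0.51 to 0.02, adjusted p = 0.578), which was not called but was in 5 of 18 alternative settings. OXT-treated VPA rats differed from control by 0.03 (95% confidence interval -0.23 to 0.29).

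Hdac4, which in mice is needed for normal learning and memory, had levels of 7.30, 7.37 and 7.34 in OXT-treated VPA rats, 7.37, 7.50 and 7.27 in vehicle-treated VPA rats, and 7.37, 7.37 and 7.38 in control rats. Its control arrays were nearly equal, and the vehicle-treated VPA arrays lay on both sides of them. Hdac5, which shuttles out of the nucleus on neuronal activity, had levels of 8.29, 7.97 and 8.07 in OXT-treated VPA rats, 8.16, 8.16 and 7.87 in vehicle-treated VPA rats, and 7.91, 7.94 and 8.07 in control rats. The highest Hdac5 arrays were from VPA rats, and so was the lowest. Vehicle-treated VPA rats differed from control by 0.01 for Hdac4 (95% confidence interval -0.17 to 0.19) and by 0.09 for Hdac5 (95% confidence interval -0.18 to 0.36). Hdac9 had levels of 7.99, 7.92 and 7.93 in OXT-treated VPA rats, 7.94, 7.91 and 7.93 in vehicle-treated VPA rats, and 8.01, 7.97 and 7.95 in control rats. The vehicle-treated VPA arrays of Hdac9 did not overlap with control, yet the difference was only -0.05 (95% confidence interval -0.20 to 0.10, adjusted p = 0.849). Hdac9 spanned 0.10 over the 9 arrays, the least of the 10 members.

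Hdac6, the class IIb enzyme that deacetylates tubulin in the cytoplasm, had levels of 7.60, 7.75 and 7.66 in OXT-treated VPA rats, 7.58, 7.68 and 7.63 in vehicle-treated VPA rats, and 7.63, 7.61 and 7.63 in control rats. The control arrays lay inside the range of both VPA groups. The difference was 0.01 for vehicle-treated VPA against control (95% confidence interval -0.16 to 0.17) and 0.04 for OXT against vehicle (95% confidence interval -0.13 to 0.21). Hdac11, the single class IV member, which also removes fatty acyl groups from lysines, had levels of 9.47, 9.45 and 9.02 in OXT-treated VPA rats, 9.33, 9.44 and 8.79 in vehicle-treated VPA rats, and 9.21, 9.18 and 9.11 in control rats. Replicate 3 of each VPA group lay under all control arrays, and the other 4 VPA arrays lay above them. Hdac11 therefore had the widest spread within groups, with a pooled SD of 0.251, larger than that of 88.9% of probe sets over 6.6. Vehicle-treated VPA rats differed from control by 0.02 (95% confidence interval -0.39 to 0.43, adjusted p = 0.982), and by 0.22 without vehicle-treated VPA replicate 3. OXT-treated VPA rats differed from vehicle-treated VPA rats by 0.13 (95% confidence interval -0.29 to 0.54).

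**Figure D2:**
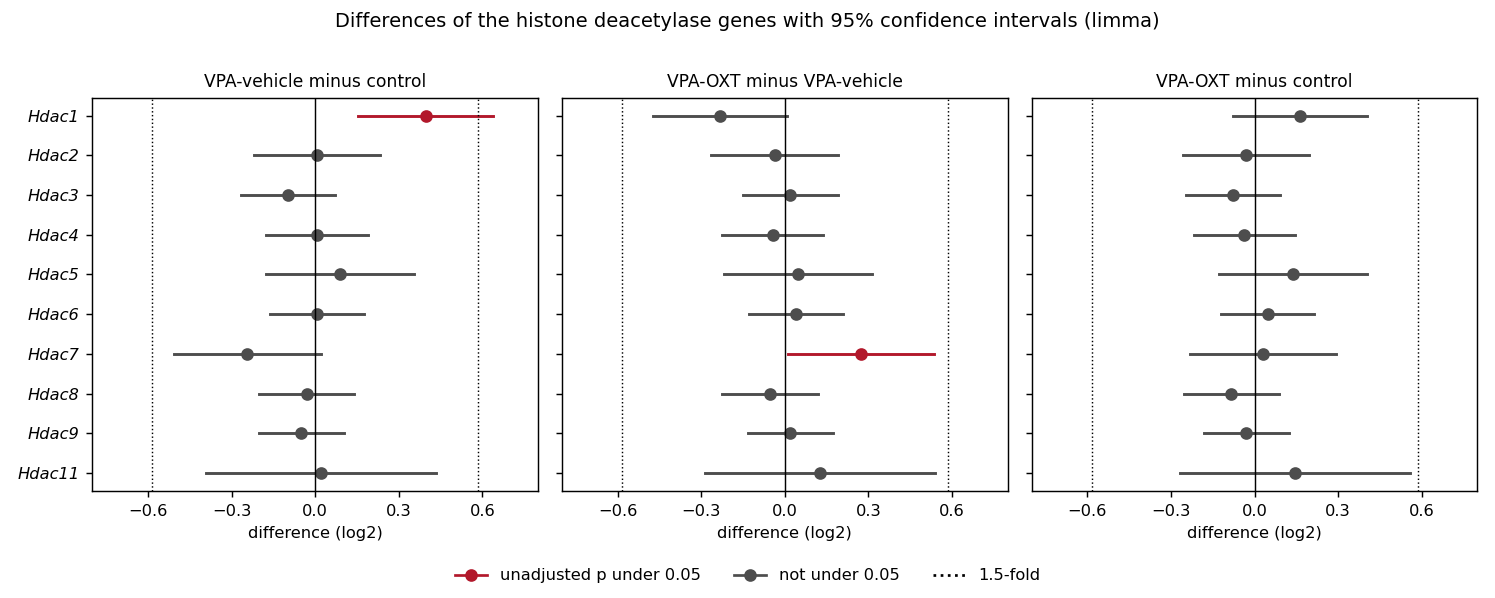
Difference in log2 level of each member with its 95% confidence interval from limma, in 3 comparisons (n = 3 arrays per group); dotted lines mark 1.5-fold, and red marks an unadjusted p under 0.05. Only the interval of Hdac1 for vehicle-treated VPA minus control, 0.16 to 0.64, crosses a dotted line.

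Read against all probe sets, the members' counts stood near the background shares. Between vehicle-treated VPA and control rats, 1 of 10 members was called, against 8.98% of all probe sets, of which 5% were higher and 3.98% lower. Arrays of the 2 groups did not overlap for 2 members, Hdac1 and Hdac9, against 13.6% of probe sets. The median difference was 0.0067 over the members and 0.0067 over all probe sets. Between OXT-treated and vehicle-treated VPA rats, 1 of 10 members was called, against 4.66% of probe sets, with 1.86% higher and 2.81% lower, and arrays did not overlap for 1, Hdac1, against 6.33%. Between OXT-treated VPA and control rats, 0 of 10 members were called, against 7.38%, with 3.87% higher and 3.51% lower, and arrays did not overlap for 1, Hdac3, against 12%. For both VPA groups against control and for the limma F over the 3 groups, 1 of 10 members was called, Hdac1 each time, against 9.31% and 7.54% of probe sets.

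After adjustment, 0% of probe sets passed in the 3 pairwise comparisons and in the F, and 0.00657%, or 2 probe sets, passed for both VPA groups against control. Neither was a member. For vehicle-treated VPA against control, the 95% intervals of the 9 members other than Hdac1 lay within 1.5-fold in either direction, and for the other comparisons those of all 10 did.

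Marker genes of neighboring tissue moved with the groups. In bulk tissue, fewer cells of a type and less RNA per cell cannot be told apart. Choroid plexus markers (10 of 10 measured), which include transthyretin (Ttr), averaged 8.98, 7.81 and 5.63 in OXT-treated VPA rats, 5.73, 6.17 and 5.40 in vehicle-treated VPA rats, and 8.51, 8.00 and 7.66 in control rats. They were lower in vehicle-treated VPA than in control rats for 9 of 10 genes at an unadjusted p under 0.05, against 3.98% of probe sets. The 3 arrays with the highest Hdac1 were thus also low in choroid plexus RNA. Between the VPA groups, where Hdac7 was called, 8 of 10 were called higher after OXT (median difference 1.64), against 1.86% of probe sets. OXT-treated VPA replicate 3, the array with the highest Hdac7, was not among the arrays high in these markers. OXT-treated VPA replicate 3 was as low in these markers, at 5.63, and had the lowest Hdac1 of its group, 7.12. Thalamus markers (7 of 7 measured) averaged 8.40, 8.26 and 6.72 in OXT-treated VPA rats, 8.24, 7.88 and 6.64 in vehicle-treated VPA rats, and 6.79, 6.38 and 6.62 in control rats, with 3 genes higher and 1 lower in either VPA group than in control. Over all probe sets, 5% were called higher and 3.98% lower with vehicle than in control, and 3.87% and 3.51% with OXT. Vehicle-treated VPA replicate 3 was at the control level for thalamus markers and had the highest Hdac1, 7.54.

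Among markers of other cells, those of hippocampal principal cells (6 of 7 measured), the tissue the labels name, were over 6.6 on all arrays apart from Spink8, which was under it on all 9. The list mean was 8.81 to 9.04 in OXT-treated VPA rats, 8.83 to 9.08 in vehicle-treated VPA rats and 9.08 to 9.30 in control rats. Of the 6 genes, 3 were called lower after OXT and 2 after vehicle than in control, against 3.51% and 3.98% of probe sets. Ventral hippocampus markers (6 of 6 measured) averaged 7.77 to 8.01 in OXT-treated VPA rats, 7.64 to 7.81 in vehicle-treated VPA rats and 7.06 to 7.32 in control rats. In either VPA group 4 genes were called higher than in control, against 3.87% of probe sets with OXT and 5% with vehicle. Endothelium markers (5 of 6 measured), of interest for Hdac7, averaged 7.60 to 7.64 in OXT-treated VPA rats, 7.48 to 7.58 in vehicle-treated VPA rats and 7.28 to 7.36 in control rats. These markers were lowest in control rats, while Hdac7 was lowest with vehicle. Between the VPA groups, where Hdac7 was called, all 5 markers were also higher after OXT, by 0.02 (Cldn5) to 0.22 (Tek). Of these, 0 were called at an unadjusted p under 0.05, against 4.66% of probe sets. Meninges markers (5 of 5 measured) averaged 7.24, 6.85 and 7.52 in OXT-treated VPA rats, 6.66, 7.01 and 6.21 in vehicle-treated VPA rats, and 6.58, 6.62 and 6.20 in control rats. Of these 5 genes, 2 were called higher after OXT than after vehicle, against 1.86% of probe sets. Both Hdac7 and these markers were highest on OXT-treated VPA replicate 3, and Hdac7 was lowest on vehicle-treated VPA replicate 3. Oligodendrocyte markers (6 of 7 measured) averaged 10.33, 10.06 and 9.61 in OXT-treated VPA rats, 10.22, 10.36 and 9.44 in vehicle-treated VPA rats, and 10.44, 10.42 and 10.91 in control rats. The 2 VPA arrays lowest in these and in thalamus markers were those lowest in Hdac11. The part of these markers in the deacetylase levels was not tested.

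**Figure D3:**
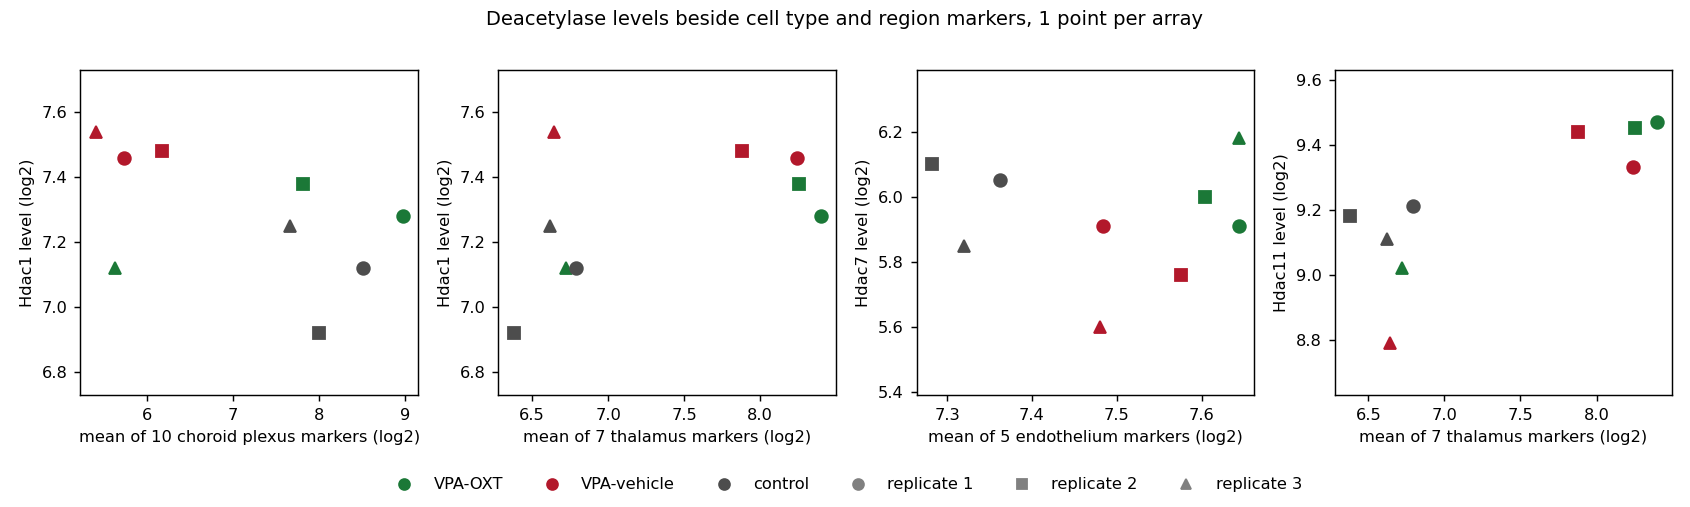
Level of Hdac1, Hdac7 or Hdac11 (log2) against the mean level of a marker list (log2) on each of the 9 arrays; colors are groups and shapes are replicates. OXT-treated VPA replicate 3 (green triangle) lies at 5.63 for choroid plexus markers, beside the vehicle-treated VPA arrays, while its Hdac1 level of 7.12 equals that of control replicate 1.

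Partners and opposing enzymes of the deacetylases were taken as 6 lists of 103 genes, of which 89 were measured. Between vehicle-treated VPA and control rats, 6 of 89 (6.74%) were called, 1 higher and 5 lower, with a median difference of -0.05, against 8.98% and a median of 0.0067 over all probe sets. Between the VPA groups, 0 of 89 were called at an unadjusted p under 0.05 with limma, against 4.66% of probe sets. Between OXT-treated VPA and control rats, 4 of 89 (4.49%) were called, 1 higher and 3 lower, against 7.38% of probe sets. For both VPA groups against control, 5 of 89 (5.62%) were called, 1 higher and 4 lower, against 9.31%. After adjustment, 0 passed in any of these comparisons.

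The list of partners of Hdac1 and Hdac2 holds subunits of Sin3, NuRD and CoREST and of the related Mier and mitotic deacetylase complexes. Of 33 measured, 2 were lower in vehicle-treated VPA than in control rats and 0 were higher, against 3.98% and 5% of all probe sets. Mbd3, which helps build NuRD, had levels of 7.27, 7.42 and 7.13 in vehicle-treated VPA rats and 7.43, 7.60 and 7.68 in control rats (difference -0.30, adjusted p = 0.530). Dnttip1, a scaffold of the mitotic deacetylase complex, had 7.26, 7.36 and 7.22 in vehicle-treated VPA rats and 7.45, 7.52 and 7.46 in control rats (difference -0.20, adjusted p = 0.536). The arrays of the 2 groups did not overlap for either gene, as for 13.6% of all probe sets. The NCoR and SMRT list around Hdac3 had 0 of 6 genes called in any comparison. The same held for the 12 acetyltransferases, which add the acetyl groups, and the 13 bromodomain readers, which bind them. Over all probe sets, 4.66% to 9.31% were called in these comparisons, so 0 calls in lists this short lie near the background. Among the sirtuins and Hdac10, 1 of 7 was lower, against 3.98% of all probe sets. The mitochondrial deacetylase Sirt3 had 7.29, 7.27 and 7.40 in vehicle-treated VPA rats and 7.48, 7.46 and 7.57 in control rats (difference -0.18, adjusted p = 0.531).

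Partners of the class IIa enzymes held the other calls, with 1 of 18 higher and 2 of 18 lower in vehicle-treated VPA than in control rats, all of them calcium and calmodulin-dependent kinases. Over all probe sets, 5% were higher and 3.98% lower in this comparison. Camk4 had levels of 8.12, 8.34 and 8.40 in OXT-treated VPA rats, 8.43, 8.26 and 8.09 in vehicle-treated VPA rats, and 8.67, 8.63 and 9.03 in control rats. Camk1d had levels of 8.81, 9.10 and 9.0 in OXT-treated VPA rats, 9.08, 8.94 and 9.03 in vehicle-treated VPA rats, and 9.37, 9.36 and 9.29 in control rats. For both kinases, every VPA array lay under every control array. Over all probe sets, 13.6% did not overlap, in either direction, between vehicle-treated VPA and control arrays, and 12% between OXT-treated VPA and control arrays. No such share was taken for both VPA groups together against control. The Camk4 difference was -0.52 with vehicle (SE 0.139, adjusted p = 0.312) and -0.49 with OXT (adjusted p = 0.419), and the Camk1d difference was -0.32 with vehicle (SE 0.092, adjusted p = 0.339) and -0.37 with OXT (adjusted p = 0.311).

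Camk2d went the other way, with levels of 8.06, 7.96 and 7.44 in OXT-treated VPA rats, 7.78, 7.90 and 7.55 in vehicle-treated VPA rats, and 7.24, 7.44 and 7.20 in control rats. Its difference from control was 0.45 with vehicle (SE 0.169, adjusted p = 0.478) and 0.53 with OXT (adjusted p = 0.484). Replicate 3 of both VPA groups was the lowest of its group, as for thalamus markers. Mark2, a kinase that phosphorylates class IIa enzymes, was called for OXT-treated VPA against control, with 8.12, 8.14 and 8.06 in OXT-treated VPA rats and 8.26, 8.31 and 8.28 in control rats (difference -0.18, adjusted p = 0.636). Its differences in the other 2 pairs of groups were not called.

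**Figure D4:**
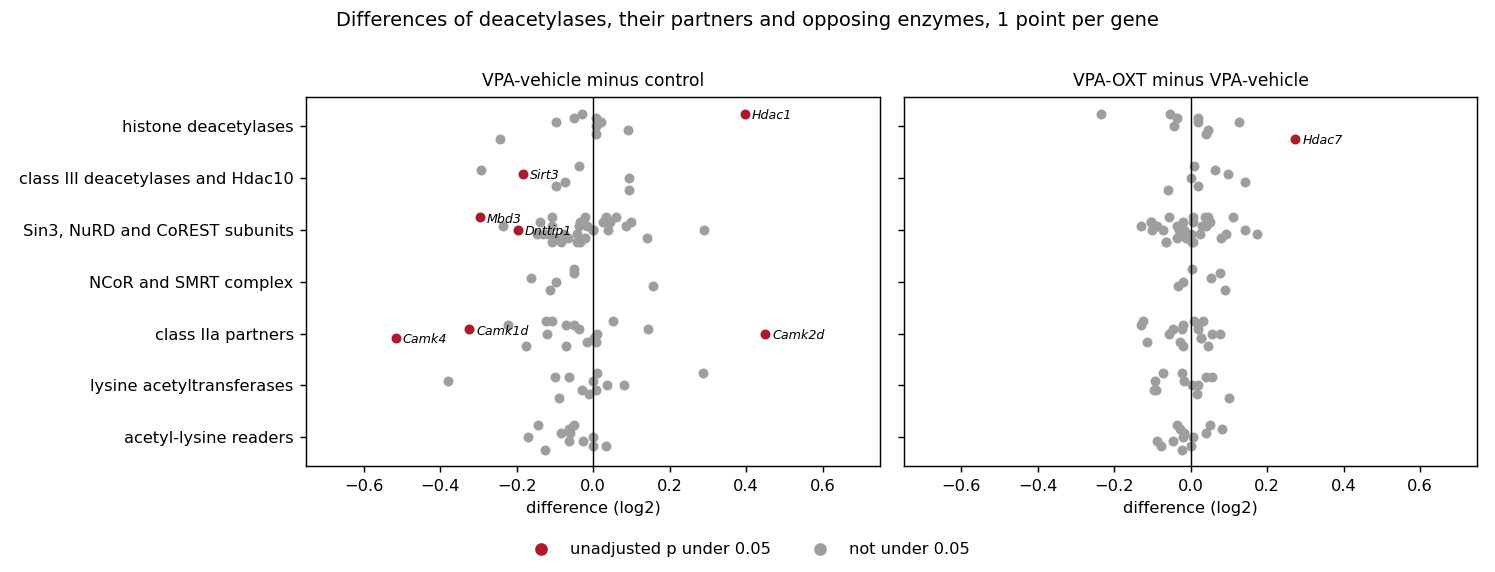
Difference in log2 level of the 10 members and of the measured genes of 6 partner lists, 1 point per gene, for vehicle-treated VPA minus control (left) and OXT-treated minus vehicle-treated VPA (right); red marks an unadjusted p under 0.05. On the left, Hdac1 and Camk2d are called higher and 5 partner genes lower, and on the right only Hdac7 is called.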

How the data were processed

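RNA of 9 dorsal hippocampi was measured on Rat Gene 2.0 ST arrays. The authors analyzed the arrays with Transcriptome Analysis Console (version 4.0), and the submitters' notes name Affymetrix Expression Console. The deposited values are log2 expression, normalized and summarized by the authors and used as deposited. The summarization method and genome build are not given in the sources used here. Probe sets were named from the platform annotation, and 18394 gene IDs matched a RefSeq gene table (GRCr8). Of several probe sets of a gene, the one with the highest mean was to be used, and all 10 members had 1.

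The 3 groups were fitted in 1 model over all 30429 probe sets in limma 3.58.1 under R 4.3.3, with Benjamini-Hochberg adjustment. The procedure was tested on simulated data. All members are named, with the called genes of each partner list (at most 4 a comparison) and the 5 genes correlated most with Hdac1. Marker genes were named only where their level moved with a result. The members and lists were chosen with earlier results of these data known. Each comparison was repeated with array weights, after quantile normalization or median centring, with trend and robust or with no moderation, on only the 2 groups compared, on probe sets over the level, on those of 1 symbol, with a replicate block, without each array in turn, and at the adjusted and 1.5-fold criteria. The lowest probe set of a gene was also counted as a setting, but it repeats the main fit, as all 10 members had 1 probe set. Scanner files were not used here. The number of arrays limits the precision.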

Additional observations from a re-analysis of the deposited data

How the results depend on the processing

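Over the 30 pairwise differences of the members, 18 took the opposite sign in no alternative (Hdac6 for OXT minus vehicle was 0 without OXT-treated VPA replicate 2) and 12 did in at least 1, and none of those 12 was called. The Hdac1 difference between vehicle-treated VPA and control rats was called at an unadjusted p under 0.05 in 19 of 19 alternative fits (adjusted p between 0.109 and 0.582). Of these fits, 1 (the lowest probe set of a gene) repeats the main fit. The count of members called in that comparison was 1 and became 2, Hdac1 and Hdac7, with quantile normalization, median centring or array weights. It was 0 at an adjusted p under 0.05 and 0 with the 1.5-fold and level criteria, and ran between 1 and 2 when an array was left out, with 2 without vehicle-treated VPA replicate 1 or control replicate 3. Between OXT-treated and vehicle-treated VPA rats, the count of 1 became 2 (Hdac1 and Hdac7) with quantile normalization, with trend and robust moderation or with only probe sets of 1 symbol. It became 0 with array weights, no moderation, the adjusted p or 1.5-fold. It was 0 without OXT-treated VPA replicate 3, vehicle-treated VPA replicate 2 or 3 or control replicate 1, and 2 without control replicate 3. With only those 2 groups, or with the filter on level, which drops Hdac7, the member called was Hdac1. Between OXT-treated VPA and control rats, the count of 0 became 1 (Hdac1) with array weights. For both VPA groups against control, the count of 1 became 0 at the adjusted p, with 1.5-fold and without control replicate 2, and was 1 without any other array. For the F, it became 0 at the adjusted p and with 1.5-fold, and was 2 (Hdac1 and Hdac7) without vehicle-treated VPA replicate 1 and 1 without any other array. The replicate number as a block (replicate block) gave 0 members between the VPA groups and 1 between vehicle-treated VPA and control rats. Arrays of the same number correlated between -0.212 and 0.101 in their deviations over all probe sets. Single genes could still follow the number, as Wfs1 was lowest on replicate 3 of every group (9.13 with OXT, 8.66 with vehicle after VPA and 9.48 in control). Arrays of different numbers were not compared in this way, so whether the numbers pair the samples is not known here.

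Array weights changed the sign of Hdac2 (-0.013 for vehicle-treated VPA minus control, 0.030 for OXT minus vehicle, 0.017 for OXT minus control), of Hdac5 (-0.031 for OXT minus vehicle) and of Hdac7 (-0.031 for OXT minus control). Leaving out an array gave, for vehicle-treated VPA minus control, -0.068 to 0.082 for Hdac2, -0.053 to 0.062 for Hdac4, -0.018 to 0.032 for Hdac6 and -0.107 to 0.218 for Hdac11. For OXT minus vehicle it gave -0.112 to 0.038 for Hdac2, -0.018 to 0.067 for Hdac3, -0.098 to 0.017 for Hdac4, -0.05 to 0.117 for Hdac5, -0.0017 to 0.033 for Hdac9 and -0.072 to 0.273 for Hdac11. For OXT minus control it gave -0.073 to 0.022 for Hdac2 and -0.045 to 0.09 for Hdac7.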

Other observations

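Among 8760 other probe sets of 1 gene over the level of 6.6, the 5 whose levels were most like those of Hdac1 over the 9 arrays were Slc38a2, Lpgat1l1, Pkia, Wbp4 and Khdrbs2, with Pearson r of 0.948, 0.919, 0.905, 0.896 and 0.889. These correlations span the 3 groups and are given as a description. Slc38a2, a neutral amino acid transporter, averaged 9.69 in OXT-treated VPA rats, 9.91 in vehicle-treated VPA rats and 9.60 in control rats. Khdrbs2, an RNA-binding splicing regulator, averaged 7.15 in OXT-treated VPA rats, 7.35 in vehicle-treated VPA rats and 7.01 in control rats. Pkia, an inhibitor of protein kinase A, averaged 8.39 in OXT-treated VPA rats, 8.47 in vehicle-treated VPA rats and 8.29 in control rats. In each of these 3 genes, as in Hdac1, the vehicle-treated VPA mean was the highest, which the choice by likeness favors.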
